A study of Drosophila melanogaster with 2 samples.

Results

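The genes described here are the sex determination hierarchy of *Drosophila melanogaster* and its yolk protein targets, 10 genes chosen by name among the 17559 rows of the deposited table. There are 7 regulators, *Sxl*, *tra*, *tra2*, *dsx*, *fru*, *ix* and *her*, and 3 yolk protein genes, *Yp1*, *Yp2* and *Yp3*. All 10 had a row and passed the limit of 20 reads in both libraries together, which 11606 genes passed. RNA was taken from 10 pooled whole flies heterozygous for the *taf1* mutation labelled Taf1_1 and from 10 pooled whole flies of the control line w1118, so each genotype had 1 library. The mutant chromosome, which also carried alleles of the marker genes *red* and *e*, came from a single balanced stock and was crossed to the control line. The heterozygotes thus took part of their genome from that stock, and this difference in background and the *taf1* mutation cannot be told apart. The sources used here state neither the sex nor the age of the flies.

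In somatic cells of the fly, sex is set by a chain of RNA splicing choices. Sxl, an RNA-binding protein made in females, directs the splicing of *tra* RNA to a form that encodes Tra protein. Tra and Tra2 then direct the splicing of *dsx* and *fru*, so that each sex makes its own Dsx transcription factor and males make Fru in neurons of courtship behaviour. The female form of Dsx acts with Ix on the yolk protein genes, and Her acts on them too. Adult females express these genes strongly in fat body and ovarian follicle cells. The proteins are secreted and taken up by the oocyte.

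The regulators are switched mainly by splicing, and the deposited values are totals per gene, in which the male and female RNAs of a gene are added together. The annotation of genome build BDGP6 shows what is merged. *tra* (FBgn0003741) has 2 transcripts that encode proteins of 197 and 36 amino acids, and the one that encodes 36 is the form made in both sexes. *dsx* (FBgn0000504) has 7 transcripts with 3 different 3′ ends. The 3 transcripts that reach the most distant end encode 549 or 572 amino acids, and the other transcripts 403 or 427. *Sxl* (FBgn0264270) has 25 annotated transcripts and *fru* (FBgn0004652) has 15. A level of these genes therefore does not say which sex-specific form was present.

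The libraries held 32364756 reads for the *taf1*-mutant flies and 16753242 reads for control flies. The TMM method, which assumes that most genes do not differ, gave a size ratio of 1.61 for the mutant library over the control library. Levels are in CPM, reads for each 1000000 reads of the control library after this scaling, with exact 95% Poisson intervals. Log2 ratios are those of *taf1* mutant over control, with exact 95% binomial intervals, and both kinds of interval reflect counting error alone. Since each genotype had a single library, no test could be fitted, no p-value is given, and a difference is one between these libraries with no replicate check. Genes that differed by at least 1.5-fold, with an interval that excluded equality, were called higher or lower. In a whole fly, fewer cells of a type and less RNA per cell cannot be told apart. *Taf1* (FBgn0010355) itself had 1564 reads in the mutant library and 1352 reads in the control library, or 58.0 and 80.7 CPM, a log2 ratio of -0.48 (-0.58 to -0.37). The 200 measured genes nearest to it in transcript length and expression had a median of -0.28. Set against them *Taf1* stood at -0.20 (-0.30 to -0.09).

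Among the 10 genes, *tra2* and *Yp1* were lower in *taf1*-mutant flies and none was higher. Of all measured genes, 6.14% were lower and 12.8% were higher, so the 2 genes were read against a background in which 713 genes were called lower. The median log2 ratio of the 10 genes was -0.24, beside 0.01 over all measured genes. Of the 10 ratios 9 lay below 0, beside 5722 of all 11606 measured genes. The 10 ratios share the same libraries and scaling, and most were small. The 8 genes not called lay between -0.36 for *tra* and 0.03 for *ix*.

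**Figure D1:**
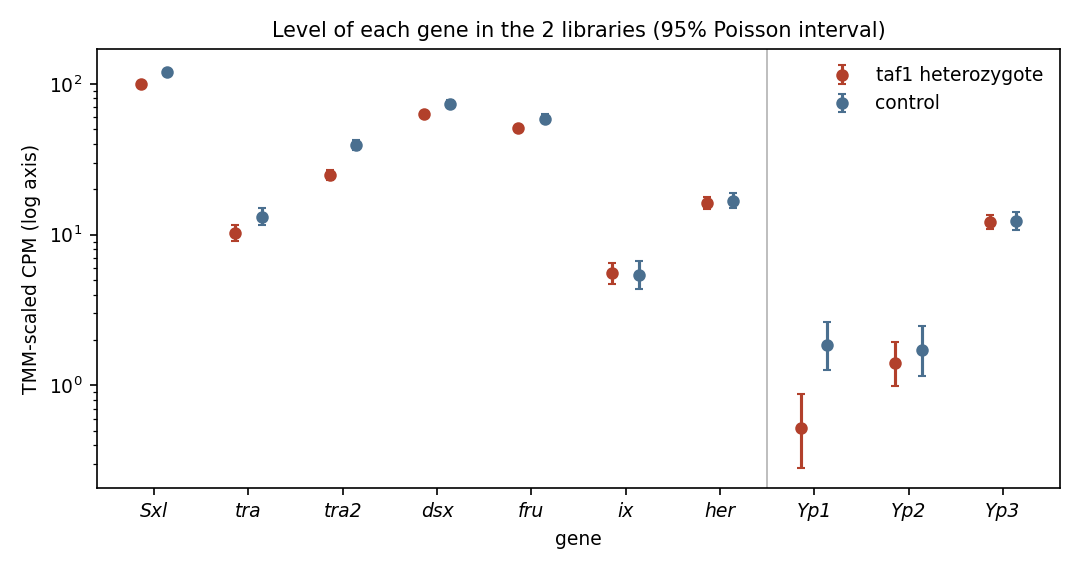
TMM-scaled CPM of each gene on a log axis, with *taf1*-mutant flies in red and control flies in blue (1 library each) and 95% Poisson intervals as bars. The regulators ran between 5.43 and 119.7 CPM over both libraries. The intervals of the libraries lay apart for *Sxl*, *tra2*, *dsx*, *fru* and *Yp1*, of which *tra2* and *Yp1* differed by at least 1.5-fold.

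At the head of the hierarchy, *Sxl* had the most reads of the 10 genes in both libraries. There were 2706 reads in *taf1*-mutant flies and 2006 reads in control flies, which is 100.4 CPM (96.6 to 104.2) in the mutant library and 119.7 CPM (114.6 to 125.1) in the control library. The mutant library held 83.8% of the control level, a log2 ratio of -0.25 (-0.34 to -0.17). The interval excluded equality, and the difference did not reach 1.5-fold. *Sxl* lies on the X chromosome of BDGP6 from 7074550 to 7098053, where 117 bases of its exons, 1.27% of their length, are shared with *mir-4956*, which was listed at 0 in both libraries.

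*tra*, the target of Sxl, had 276 reads in *taf1*-mutant flies and 221 reads in control flies. These were 10.2 CPM (9.07 to 11.5) in the mutant library and 13.2 CPM (11.5 to 15.1) in the control library, with a log2 ratio of -0.36 (-0.63 to -0.10). The difference stayed within 1.5-fold with TMM. It passed that limit with total reads as the library size (-0.63) or with the qPCR reference genes of the study held at equality (-0.69), and *tra* then joined *tra2* and *Yp1* as a gene called lower. The gene is short and lies on chromosome 3L from 16590059 to 16591050. Its exons share 74 bases, 8.58% of their length, with the neighbour *l(3)73Ah* on the opposite strand, which had 751 reads in the mutant library and 460 in the control library.

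*tra2* encodes the partner of Tra in the splicing of *dsx* and *fru*, and it is also required for spermatogenesis in the male germline. It had 667 reads in *taf1*-mutant flies and 661 reads in control flies, although the mutant library was the larger. After scaling these were 24.7 CPM (22.9 to 26.7) in the mutant library and 39.5 CPM (36.5 to 42.6) in the control library, or 62.7% of control. The log2 ratio was -0.67 (-0.83 to -0.52), and 5.03% of all measured genes had a lower one. *tra2* (FBgn0003742) lies on chromosome 2R from 14602004 to 14604337 and shares 7 bases of its exons with *Blos1* on the opposite strand.

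*tra2* was lower relative to each of the other regulators, a comparison in which the library size cancels out. There were 0.246 *tra2* reads for each *Sxl* read in *taf1*-mutant flies and 0.330 in control flies, a log2 ratio of these ratios of -0.42 (-0.60 to -0.24). Relative to *dsx* the value was -0.45 (-0.64 to -0.26) and relative to *fru* it was -0.46 (-0.65 to -0.26). It was -0.70 (-1.12 to -0.28) relative to *ix* and -0.63 (-0.90 to -0.35) relative to *her*. Relative to *tra*, its partner, *tra2* stood at -0.31 with an interval that barely excluded equality (-0.61 to -0.0013). These 6 comparisons share the *tra2* reads and are not separate results. Their direction was fixed beforehand, since *tra2* had the lowest log2 ratio of the regulators.

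The targets of Tra and Tra2 had nearly the same ratio. *dsx*, which encodes the transcription factor that forms the sexes of the body, had 1705 reads in *taf1*-mutant flies and 1237 reads in control flies. This was 63.3 CPM (60.3 to 66.3) in the mutant library and 73.8 CPM (69.8 to 78.1) in the control library, with a log2 ratio of -0.22 (-0.33 to -0.12). *fru*, whose male products shape the nervous system for courtship, had 1366 reads in *taf1*-mutant flies and 987 reads in control flies. Its levels were 50.7 CPM (48.0 to 53.4) in the mutant library and 58.9 CPM (55.3 to 62.7) in the control library, with a log2 ratio of -0.22 (-0.34 to -0.10). Neither reached 1.5-fold. There were 1.25 *dsx* reads for each *fru* read in either library, and the log2 ratio of these ratios was -0.01 (-0.17 to 0.15). *dsx* and *fru* lie on chromosome arm 3R, as *Taf1* does. *dsx* runs from 7924323 to 7967408 and begins 1268274 bases beyond *Taf1*, and *fru* runs from 18414273 to 18545586. In *dsx*, 169 exonic bases (1.84%) are shared with *lds* on the opposite strand.

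*ix* and *her* did not differ beyond counting error. *ix* encodes a subunit of the Mediator complex that works with the female form of Dsx. It had 149 reads in *taf1*-mutant flies and 91 reads in control flies, which is 5.53 CPM (4.68 to 6.49) in the mutant library and 5.43 CPM (4.37 to 6.67) in the control library. Its log2 ratio was 0.03 (-0.36 to 0.42), the highest of the 10. *her* encodes a zinc finger protein that acts early on *Sxl* and later on yolk protein genes. It had 439 reads in *taf1*-mutant flies and 282 reads in control flies, or 16.3 CPM (14.8 to 17.9) in the mutant library and 16.8 CPM (14.9 to 18.9) in the control library. The log2 ratio was -0.05 (-0.27 to 0.17). *ix* (FBgn0001276) is on chromosome 2R from 11359437 to 11360163, and *her* (FBgn0001185) is on 2L from 16677185 to 16679691.

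**Figure D2:**
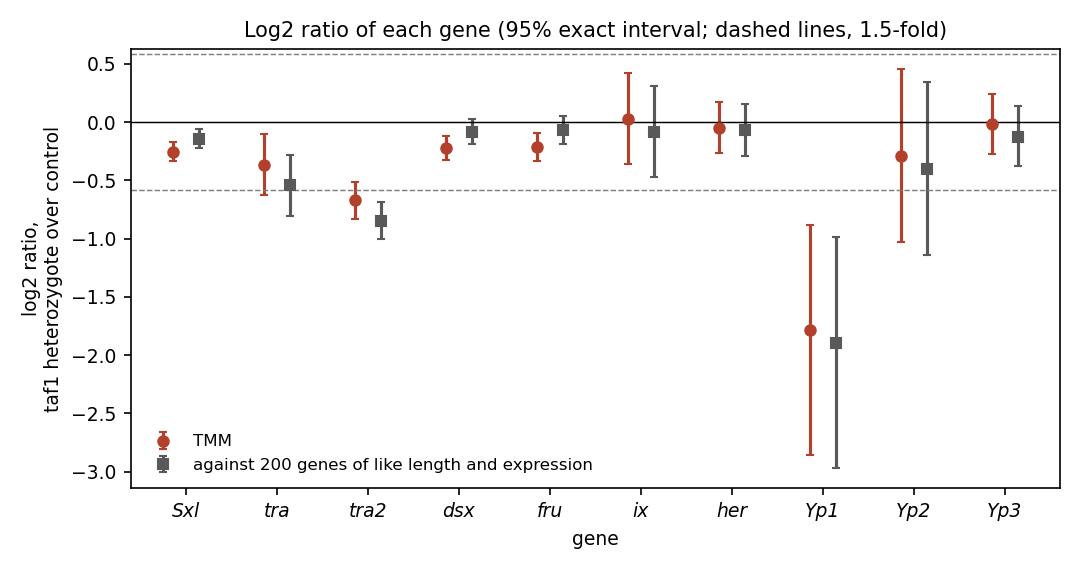
Log2 ratio of *taf1* mutant over control for each gene with 95% exact intervals, with TMM (red circles) and against the 200 measured genes nearest in transcript length and expression (grey squares). Dashed lines mark 1.5-fold. *tra2* (-0.67 and -0.85) and *Yp1* (-1.79 and -1.90) lay below the lower line in both cases.

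Log2 ratios in these libraries varied with transcript length. The median was 0.19 in the tenth of measured genes with the shortest transcripts (1149 genes of 649 nt or less) and -0.28 in the tenth with the longest (1149 genes of 4422 nt or more). The long genes of the hierarchy therefore moved closer to 0, and the short ones away from it, when each was set against the 200 measured genes nearest in transcript length and expression. *Sxl* stood at -0.14 (-0.23 to -0.06), *dsx* at -0.08 (-0.19 to 0.03) and *fru* at -0.07 (-0.18 to 0.05) in this comparison. *tra* stood at -0.54 (-0.80 to -0.28), still within 1.5-fold. *tra2*, with a median transcript of 1391 nt, stood at -0.85 (-1.01 to -0.69).

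*Yp1* and *Yp2* had the lowest levels of the 10 genes per kilobase of their median transcript. *Yp3* stood well above them and did not differ from *ix* and *her* beyond counting error. Reads of the yolk protein genes were few in both libraries. The 3 genes together had 14.1 CPM in *taf1*-mutant flies and 15.9 CPM in control flies, while the list of 24 testis genes summed to 8193 CPM in *taf1*-mutant flies and 7931 CPM in control flies. The values of yolk protein genes are thus low levels in pools rich in testis RNA, and how the pools were made up by sex was not tested. *Yp3* had 329 reads in *taf1*-mutant flies and 207 reads in control flies, or 12.2 CPM (10.9 to 13.6) in the mutant library and 12.4 CPM (10.7 to 14.2) in the control library. Its log2 ratio was -0.02 (-0.27 to 0.24). *Yp2* had 38 reads in *taf1*-mutant flies and 29 reads in control flies, which is 1.41 CPM (0.998 to 1.93) in the mutant library and 1.73 CPM (1.16 to 2.49) in the control library. Its log2 ratio was -0.29 (-1.03 to 0.45), so a 2-fold lower level in the mutant library lies inside the interval.

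*Yp1* was lower in *taf1*-mutant flies. It had 14 reads in the mutant library and 31 reads in the control library, or 0.519 CPM (0.284 to 0.871) in *taf1*-mutant flies and 1.85 CPM (1.26 to 2.63) in control flies. This is 28.9% of the control level and a log2 ratio of -1.79, with a wide interval (-2.86 to -0.88) that reflects the 45 reads behind it. The limit that a count of 0 allows, 3 reads, is 0.111 CPM in the mutant library and 0.179 CPM in the control library. With a limit of 50 reads in both libraries together *Yp1* was not measured, and *tra2* was then the only one of the remaining 9 genes called lower.

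The difference in *Yp1* can also be read within the family, where the scaling cancels out. The shares and ratios with *Yp1* use the same *Yp1* reads and are not separate results. A lower share of *Yp1* also raises the shares of the others. *Yp1* made up 3.67% of the yolk protein reads in *taf1*-mutant flies (95% exact binomial interval 2.02 to 6.09) and 11.6% in control flies (8.03 to 16.1). *Yp2* made up 9.97% (7.16 to 13.4) in *taf1*-mutant flies and 10.9% (7.40 to 15.2) in control flies. *Yp3* made up 86.4% (82.5 to 89.6) in *taf1*-mutant flies and 77.5% (72.0 to 82.4) in control flies. The log2 ratio of *Yp1* relative to *Yp2* was -1.52 (-2.81 to -0.29) and relative to *Yp3* it was -1.81 (-2.87 to -0.82). *Yp2* relative to *Yp3* was at -0.28 (-1.06 to 0.52), which includes equality. Summed over the 3 genes there were 381 reads in *taf1*-mutant flies and 267 in control flies, with intervals of 12.8 to 15.6 CPM in the mutant library and 14.1 to 18.0 CPM in the control library. The sum had a log2 ratio of -0.17 (-0.40 to 0.06), so the lower *Yp1* did not show in it.

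**Figure D3:**
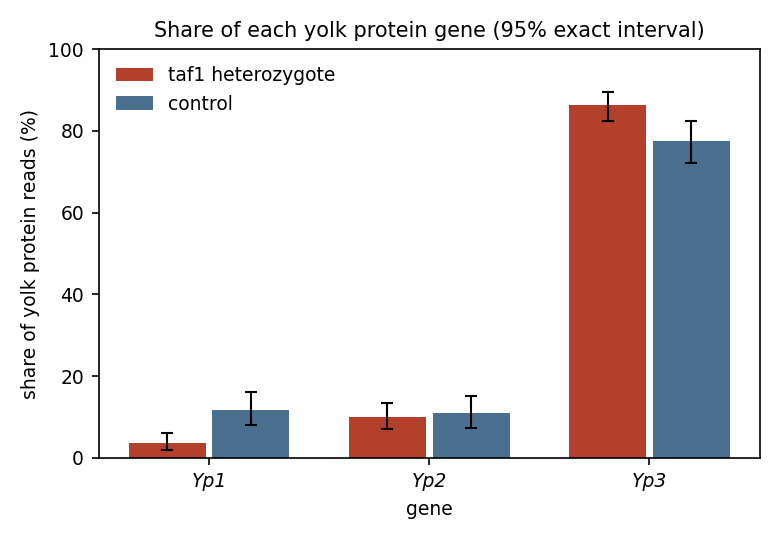
Share of *Yp1*, *Yp2* and *Yp3* in the reads of the yolk protein family (%), with *taf1*-mutant flies in red and control flies in blue, and 95% exact binomial intervals as bars. *Yp1* took 3.67% in *taf1*-mutant flies and 11.6% in control flies, and *Yp3* took most of the reads in both libraries.

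*Yp1* and *Yp2* are neighbours on the X chromosome and are transcribed away from each other. *Yp2* (FBgn0005391) lies from 10050951 to 10052636 on the minus strand and *Yp1* (FBgn0004045) from 10053811 to 10055498 on the plus strand, with 1174 bases between them. *Yp3* (FBgn0004047) lies apart, from 13759546 to 13761547. The 3 genes encode proteins of like length, 439 amino acids for Yp1, 442 for Yp2 and 420 for Yp3, which are related in sequence to lipases. *Yp1* differs from the others in an annotated antisense RNA, CR45601, that covers 875 bases or 54.3% of its exons. CR45601 was listed at 0 in both libraries. The kit was stranded, and the sources used here do not give the strand setting of the counting. Whether reads of *Yp1* in the overlap were left uncounted, which would lower its level and share, was not tested.

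The order of the 10 genes by level can be compared only per length, as CPM per kilobase of the median annotated transcript. In *taf1*-mutant flies *Sxl* was highest at 34.7 CPM per kilobase (33.4 to 36.0). *tra2* at 17.8 (16.5 to 19.2) and *dsx* at 16.9 (16.1 to 17.7) followed, with intervals that overlapped. *tra* at 13.2 and *fru* at 12.2 also overlapped, as did *ix* at 7.60, *her* at 7.32 and *Yp3* at 7.27. *Yp2* stood at 0.890 (0.630 to 1.22) and *Yp1* was lowest at 0.327 (0.179 to 0.548), and their intervals did not overlap.

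In control flies *Sxl* was again highest, at 41.4 CPM per kilobase, but *tra2* at 28.4 (26.2 to 30.6) stood clear of *dsx* at 19.7 (18.7 to 20.9). *dsx* overlapped with *tra* at 17.0, and *tra* with *fru* at 14.2. *her* at 7.57, *ix* at 7.47 and *Yp3* at 7.36 did not differ beyond counting error. *Yp1* at 1.16 (0.790 to 1.65) and *Yp2* at 1.09 (0.732 to 1.57) did not either. The order depended on the length used for genes with many transcripts. Per kilobase of all annotated exons, *tra2* was highest in both libraries, at 13.4 in *taf1*-mutant flies and 21.4 in control flies, and *Sxl* stood at 10.9 in *taf1*-mutant flies and 13.0 in control flies.

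By this measure the regulators sat in the middle of the transcriptome and *Yp1* and *Yp2* near its foot. In *taf1*-mutant flies *Sxl* was within the top 27.8% of measured genes with a transcript length and *Yp1* within the top 98.9%. In control flies *Sxl* was within the top 23.2% and *Yp1* within the top 91.8%. *tra2* was within the top 44.1% in *taf1*-mutant flies and the top 31.1% in control flies.

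Other genes with female or male roles were counted beside the yolk protein genes. The egg list holds the yolk receptor and vitelline membrane, chorion and oocyte genes. Of 22 genes matched on it, 8 were at 0 in both libraries and 7 were measured. Genes at 0 in both libraries also stood on the male lists, 6 of 18 accessory gland genes and 2 of 24 testis genes. What a 0 means for these genes was not tested. Of the 7 measured egg genes 1 was higher and 2 were lower, beside 12.8% and 6.14% of all measured genes. *yl*, the receptor that takes yolk proteins into the oocyte, was lower. It had 77 reads in *taf1*-mutant flies and 99 reads in control flies, with a log2 ratio of -1.04 (-1.50 to -0.60). *Vm26Ab*, a vitelline membrane gene, was also lower at -1.31 (-2.52 to -0.23), from 12 reads in *taf1*-mutant flies and 19 in control flies. The 7 vitelline membrane genes on the list, grouped after their values were seen, had 24 reads (0.890 CPM) together in *taf1*-mutant flies and 51 reads (3.04 CPM) in control flies. The 9 chorion genes, grouped likewise, went the other way, with 169 reads (6.27 CPM) in *taf1*-mutant flies and 67 reads (3.999 CPM) in control flies, and 6 of them were at 0 in both libraries. The chorion gene *Cp15* was higher at 0.64 (0.15 to 1.15), but within 1.5-fold when set against the 200 like genes (0.51), with total reads or with the reference genes. The whole list summed to 46.6 CPM in *taf1*-mutant flies and 48.8 CPM in control flies. Without the oocyte gene *grk* the sum was 12.1 CPM in *taf1*-mutant flies and 15.1 CPM in control flies.

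Beside the testis list, the accessory gland list summed to 5776 CPM in *taf1*-mutant flies and 7278 CPM in control flies. Of 22 measured testis genes 5 were higher and none was lower with TMM, with a median log2 ratio of -0.07. With total reads 4 were higher and 5 lower, and with the reference genes 4 were higher and 7 lower. Among all measured genes 12.8% were higher and 6.14% lower with TMM. These shares were 6.97% and 19.1% with total reads, and 6.20% and 23.7% with the reference genes. The highest testis genes were *Mst84Da* (4.95, with 118 reads in *taf1*-mutant flies and 2 in control flies), *Mst84Dc* (0.97) and *Mst87F* (0.97). When set against like genes 1 testis gene, *Mst84Da*, was higher and 1 was lower, and *Mst84Dc* (0.56) and *Mst87F* (0.43) were within 1.5-fold. Of 12 measured accessory gland genes 2 were higher, *Acp98AB* (1.48) and *SP* (0.71), and 3 were lower, *Acp26Aa* (-0.83), *Dup99B* (-0.79) and *Acp53Ea* (-0.64). When set against like genes *SP* was within 1.5-fold (0.27) and 6 genes of this list were lower, as many as with total reads or the reference genes. In that comparison with like genes 10.4% of all measured genes were higher and 6.45% lower. The fat body list was not split into larval and adult genes. With TMM 6 of its 12 genes were higher and none was lower, beside 12.8% and 6.14% of all measured genes. Its median was 0.61, and *Lsp2* (2.64), *Fbp2* (2.19) and *Tsf1* (1.31) stood at the top. With total reads or the reference genes 5 were higher and 1 was lower. The list summed to 2351 CPM in *taf1*-mutant flies and 1351 CPM in control flies. The part of these tissues in the levels of *Yp1* and *tra2* was not tested.

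**Figure D4:**
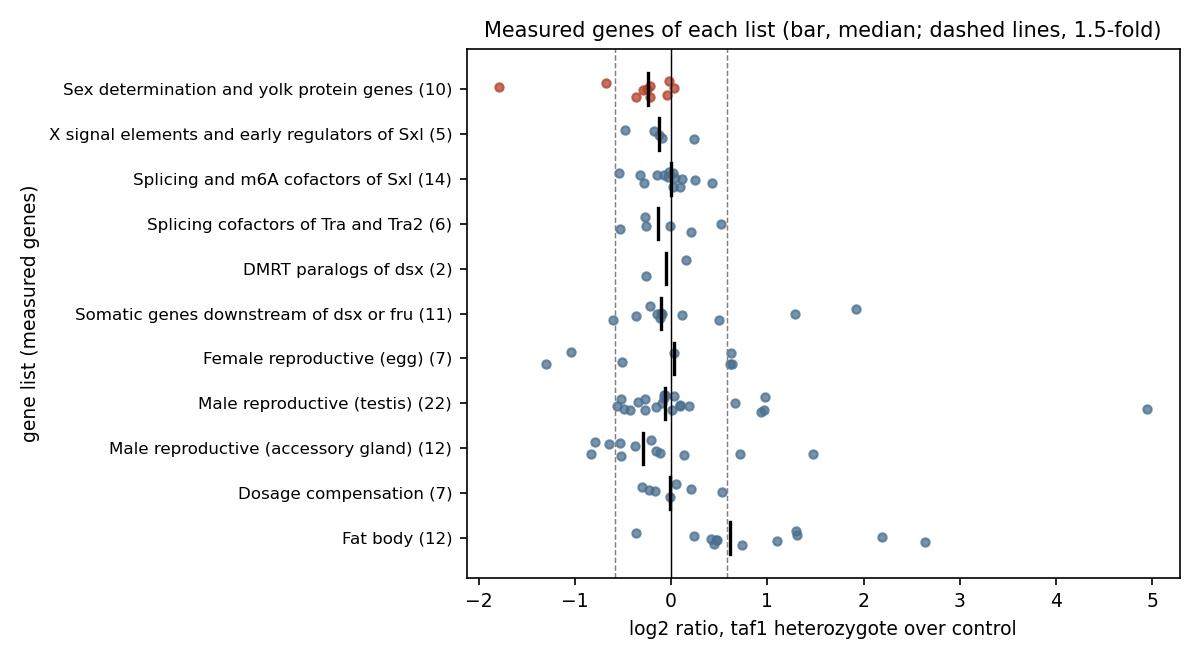
Log2 ratio of *taf1* mutant over control for the measured genes of each list, with a bar at the median and dashed lines at 1.5-fold. The 10 sex determination and yolk protein genes (red, median -0.24) lay mostly between 0 and the lower line, and the fat body genes (median 0.61) mostly above 0.

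The measured upstream partners of the hierarchy that are given here were all within 1.5-fold with TMM. Of 14 splicing and RNA methylation factors that act with Sxl, all were measured and none was called, with a median log2 ratio of 0.00 and a range of -0.55 to 0.43. Of 5 measured early regulators of *Sxl* none was called (median -0.12), and *sc* and *emc* were at 0 in both libraries. Of 6 splicing factors that act with Tra and Tra2 and are given here, none was called, and they lay between -0.53 and 0.51. These counts depended on the scaling. With the qPCR reference genes 3 of the factors that act with Sxl, 3 of those that act with Tra and Tra2 and 1 early regulator were lower, and with total reads 1 gene of each list was. The share of all measured genes called lower was 23.7% with the reference genes and 19.1% with total reads. With TMM it was 6.14%, and 12.8% were higher.

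Somatic genes linked to the hierarchy were listed without a test of whether each acts under *dsx* or *fru*. Of the 13 genes 11 were measured, with a median of -0.10. Of these 2 were higher and 1 was lower, beside 12.8% and 6.14% of all measured genes. *tsx*, also named *Obp99b*, an odorant-binding protein gene, had 666 reads in *taf1*-mutant flies and 109 in control flies and was higher at 1.92 (1.63 to 2.23). *dsf*, a nuclear receptor gene of sexual behaviour, had 60 reads in *taf1*-mutant flies and 15 in control flies and was higher at 1.29 (0.48 to 2.24). The cytochrome P450 gene *Cyp4d21* was lower at -0.60 (-0.70 to -0.51), and 1 more gene of the list was lower with total reads or the reference genes. The paralogs *dmrt93B* and *dmrt99B*, which share the DNA-binding domain type of *dsx*, were at -0.27 and 0.16, within their counting error. *msl-2*, whose translation Sxl blocks in females, had 35.1 CPM in *taf1*-mutant flies and 35.3 CPM in control flies, with a log2 ratio of -0.01 (-0.16 to 0.14). The RNAs *roX1* and *roX2*, which work with Msl-2 on the male X chromosome, were at 0.21 (0.17 to 0.25) and 0.53 (0.27 to 0.79). Both intervals excluded equality, but neither RNA reached 1.5-fold, so they were not called.

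**Figure D5:**
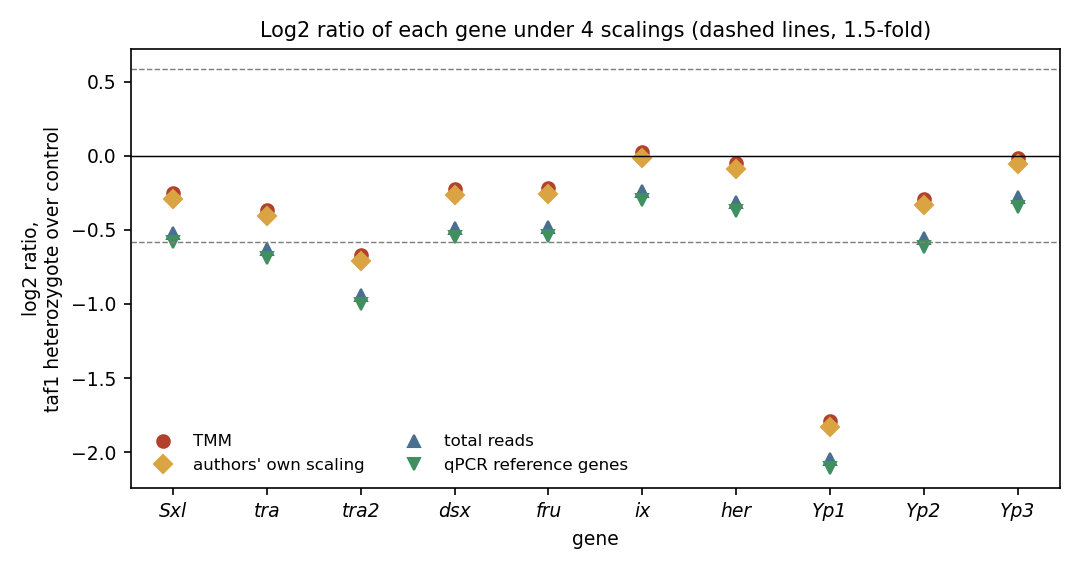
Log2 ratio of *taf1* mutant over control for each gene with TMM, the scaling of the deposited values, total reads and the qPCR reference genes, with dashed lines at 1.5-fold. *tra2* and *Yp1* lay below the lower line with each of these 4 scalings, *tra* with the last 2 (-0.63 and -0.69), and *Yp2* with the reference genes (-0.61).

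Scaling by total reads moved the log2 ratios of all genes by -0.26 and scaling to the qPCR reference genes by -0.33. All 10 genes then lay below 0, and the share of all measured genes called lower was 19.1% with total reads and 23.7% with the reference genes. *Yp2* stood at -0.61 with the reference genes, past 1.5-fold, but was not called because its interval included equality. *Sxl*, *dsx* and *fru* stayed within 1.5-fold under every scaling tried, down to -0.58 for *Sxl* with the reference genes.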

How the data were processed

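RNA of 10 pooled whole flies per genotype was sequenced by a genomics core on an Illumina HiSeq after a stranded mRNA kit. The authors deposited 1 table of a signal per gene, the number of reads divided by a factor of its library, on build BDGP6. The sources used here do not name the aligner, counting tool or annotation release. Each column was divided by its smallest positive value, which gave whole reads for 100% of values within 0.001 of a read, and these reads were used. A count model could not be fitted, because there are 0 residual degrees of freedom.

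Scaling factors came from edgeR 4.0.16 (TMM) and DESeq2 1.42.0 (median of ratios) in R 4.3.3. Ratios (prior count 0.5) and intervals were computed in Python 3.11.15 with scipy 1.17.1. They were tested on simulated reads with counting error alone, which cannot show how they behave with variation between flies or libraries. Gene models came from an Ensembl annotation of BDGP6, which gave a length for 17337 genes, and synonyms from RefSeq. *upd1*, *Srpk79D* and *dec-1* of the lists could not be matched. A gene of the splicing factor list is not reported here. The genes and lists were chosen with earlier results of these data known. Named were all 10 genes and, in each list, up to 3 called genes in each direction with 50 or more reads in either library, with *yl*, *msl-2*, *roX1* and *roX2*. Others, such as *Vm26Ab*, *grk*, *sc*, *emc*, *dmrt93B* and *dmrt99B*, were named after their values were seen. Both libraries were at 0 for 4422 of the 17559 genes. No sequences were used here.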

Additional observations from a re-analysis of the deposited data

How the results depend on the processing

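Scaling by total reads put the median log2 ratio of the 10 genes at -0.50 and the summed yolk protein genes at -0.44, and scaling to the qPCR reference genes put them at -0.56 and -0.50. Both follow from the size ratios of 1.93 and 2.02, against 1.61 with TMM. With either, *tra* was called lower as well, which makes 3 genes. Against the 200 like genes of each the median was -0.13, and the sum was not set against such genes. With a minimum of 50 reads 1 gene was called lower, because *Yp1* was no longer measured, and with a fold limit of 2 the gene called lower was *Yp1*. *tra2* was called lower in the other settings and ran from -0.998 to -0.67, and *Yp1* from -2.11 to -1.67. None of the 10 genes was called higher in any setting. Over all measured genes, the lower share ran from 1.69% with a fold limit of 2 to 23.7% with the reference genes. Depth limits *Yp1* and *Yp2*, with 45 and 67 reads in both libraries together. There were no replicates to leave out. No paired analysis was possible because each genotype has 1 library.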

Other observations

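The X chromosome, which carries *Sxl* and the 3 yolk protein genes, was set beside the autosomes as a whole. The median log2 ratio of *taf1* mutant over control was 0.03 over 1697 measured X-linked genes and 0.00 over 9763 autosomal genes. Of the X-linked genes 12.2% were higher and 6.54% were lower, and of the autosomal genes 12.7% were higher and 6.05% were lower. *Yp1* and *yl*, both called lower, are X-linked, and *tra2* is autosomal. The quartiles of the X-linked ratios were -0.26 and 0.34 and those of the autosomal ratios -0.26 and 0.32.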
